A study of Mus musculus with 6 samples.

Results

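Leucine, isoleucine and valine, the branched-chain amino acids, are broken down in mitochondria by a shared route. Branched-chain aminotransferases (Bcat1 in the cytosol, Bcat2 in mitochondria) take off the amino group, and the branched-chain keto acid dehydrogenase complex then commits the carbon skeleton to oxidation. The complex is held inactive when its kinase, Bckdk, phosphorylates the E1 subunit and is switched on again when the phosphatase Ppm1k removes the phosphate, and low expression of the pathway is a known feature of failing hearts.

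The 10 genes examined here were the rows of the deposited table named Bcat1, Bcat2, Bckdha, Bckdhb, Dbt, Bckdk, Ppm1k, Ivd, Mccc1 and Mccc2, out of 54532 rows in all, and each was found once. They were compared between hearts of Mrps5 fl/fl; MCM mice (cKO, n = 3), in which the gene for a mitochondrial ribosomal protein is floxed and a tamoxifen-inducible Cre (MerCreMer, MCM) is driven in cardiomyocytes by the αMHC promoter, and hearts of Mrps5 fl/fl mice (Ctrl, n = 3). All 6 mice carried the floxed Mrps5 allele and received tamoxifen intraperitoneally, 45 mg/kg/day for 5 days, at 8 weeks of age, and heart RNA was sequenced 12 weeks later. Only cKO mice carried MCM, so effects of Cre activity and of the deletion cannot be told apart. The study names C57BL/6J among its mice, but the genetic background of these 6 was not stated in the sources used here. Its methods describe ventricular tissue of littermate Ctrl and cKO mice, and the age they state for the mice differs from that implied by the labels, which are followed here. Mrps5 itself had levels of 5.20, 6.45 and 6.33 FPKM in Ctrl hearts but 1.12, 1.23 and 1.31 FPKM in cKO hearts, 20.4% of Ctrl.

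Levels are FPKM, read counts per kilobase of gene scaled to library size. Between genes, levels, their order and their ratios depend on the gene length used, for example 10952 bases for Mccc1 and 2802 for Mccc2. That length was the same for every heart, so it does not affect the change of a ratio between groups. Differences are log2 fold changes (cKO minus Ctrl) on log2(FPKM + 1), tested with limma over the 12944 genes whose mean was at least 0.5 FPKM, with a two-sided p adjusted over all of them by the Benjamini-Hochberg method and a threshold of 0.05. Errors of levels are SD, and errors of differences are standard errors (SE). All 10 genes passed the filter, Bcat1 only through the cKO hearts: its Ctrl mean of 0.122 FPKM is below the filter and its cKO mean of 2.18 FPKM above it, so it could enter the test only by differing. Its call is therefore given as a description of its levels, and nothing is read from its share beside the background.

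The libraries held 15989322 to 24875499 reads in genes. The library labelled cKO replicate 2 held Xist at 10.7 FPKM and the Y-linked Ddx3y and Uty at 0, the pattern of a female heart, while the other 5 libraries held both Y-linked genes and little Xist. The study states that its mice were male, so this library goes against the stated design, and results are also given without it.

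Of the 10 genes, 9 fell in cKO, where 17.0% of all genes tested fell. In these 9 every cKO heart lay below every Ctrl heart, where 26.4% of all genes tested did. Bcat1 rose, with every cKO heart above every Ctrl heart. Since it passed the filter only through the cKO hearts, its rise is not set beside the background. The median log2 fold change of the 10, Bcat1 included, was -0.61, against -0.02 over all genes tested. The decreases were not of one size: Ppm1k was at 30.1% of the Ctrl mean, Ivd at 33.6% and Mccc2 at 50.8%. The 3 genes of the dehydrogenase complex and Mccc1 were at 57.3% to 67.4%, Bckdk at 76.8% and Bcat2 at 77.5%.

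The part of that library's sex pattern in the results was not tested. Without cKO replicate 2, 7 of the 10 genes were called lower and Bcat1 higher. Of the 12935 genes tested in that fit, 2011 were called lower and 1977 higher. Bcat2 (log2 fold change -0.26, limma adjusted p 0.0812) and Bckdk (-0.28, 0.0686) were still lower but no longer passed. The split of calls over all genes depended on scaling: 48.9% of the calls were higher with the deposited values. The share was 62.0% when each heart was rescaled to its summed FPKM without mtDNA-encoded genes, which replaces the deposited scaling. It was 70.3% with scaling to all reads in genes, which moved the median difference over all genes by 0.11 on the log2 scale. Relative to that median, the median log2 fold change of the 10 genes was -0.60 with the deposited values and -0.56 with that scaling. Bcat2 and Bckdk were not called under either of these scalings, and the other 8 genes were.

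**Figure D1:**
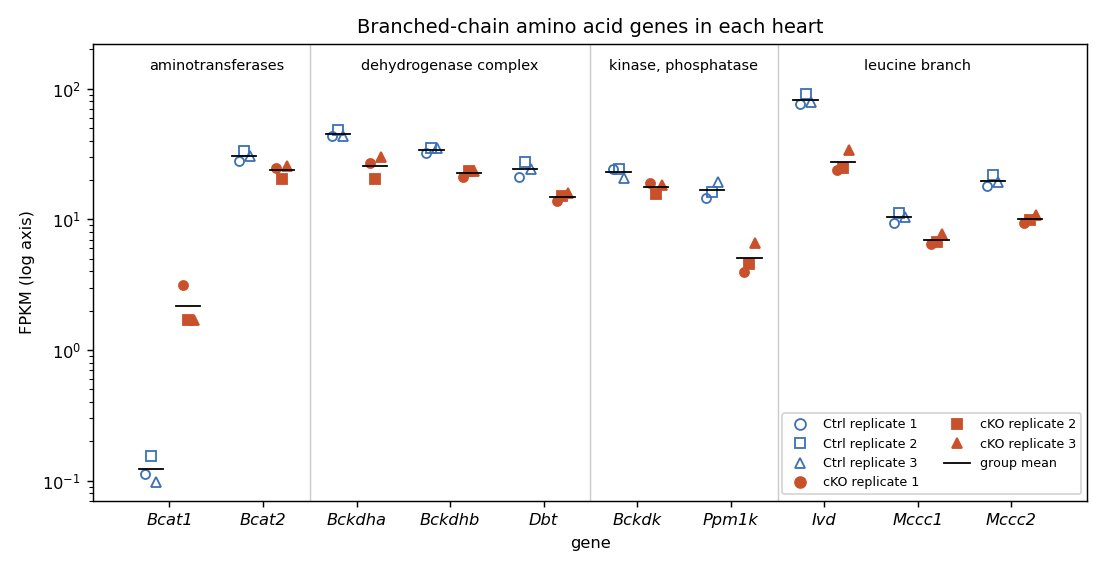
FPKM (log axis) of the 10 genes in each of the 3 Ctrl (open symbols) and 3 cKO hearts (filled symbols), with the shape giving the replicate number and a bar at the group mean. The filled symbols lie below the open ones in 9 genes and above them only in Bcat1, which starts from a mean of 0.122 FPKM.

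The plot of levels by heart sets the genes out by role, and the promoters of 4 of them are printed here for what sets them apart. Bcat1 is the gene that rose, Ppm1k and Ivd had the largest decreases of the 10, and Mccc2 is the only one of the 9 searched with an E-box (CACGTG) in its window. The sequences are those before the RefSeq start site in GRCm38.p6, 5′ to 3′ on the strand of the gene, cut short where the deposited gene model starts earlier, and the capitals mark matches to the 6 motifs searched.
Bcat1, chr6:145076185-145076407, minus strand: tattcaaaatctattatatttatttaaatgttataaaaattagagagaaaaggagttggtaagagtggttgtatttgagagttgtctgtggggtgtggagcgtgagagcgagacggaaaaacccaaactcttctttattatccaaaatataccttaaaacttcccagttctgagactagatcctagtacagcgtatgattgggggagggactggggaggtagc
Ppm1k, chr6:57535488-57535737, minus strand: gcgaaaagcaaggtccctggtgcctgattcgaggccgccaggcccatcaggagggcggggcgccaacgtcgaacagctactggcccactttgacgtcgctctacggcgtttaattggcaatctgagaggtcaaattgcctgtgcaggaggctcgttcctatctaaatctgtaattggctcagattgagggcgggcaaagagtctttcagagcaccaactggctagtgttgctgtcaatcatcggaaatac
Ivd, chr2:118861744-118861953, plus strand: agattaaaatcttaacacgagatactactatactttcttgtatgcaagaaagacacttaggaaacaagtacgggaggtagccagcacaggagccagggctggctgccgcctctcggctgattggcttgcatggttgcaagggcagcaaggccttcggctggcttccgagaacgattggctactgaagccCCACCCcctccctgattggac
Mccc2, chr13:100015640-100015889, minus strand: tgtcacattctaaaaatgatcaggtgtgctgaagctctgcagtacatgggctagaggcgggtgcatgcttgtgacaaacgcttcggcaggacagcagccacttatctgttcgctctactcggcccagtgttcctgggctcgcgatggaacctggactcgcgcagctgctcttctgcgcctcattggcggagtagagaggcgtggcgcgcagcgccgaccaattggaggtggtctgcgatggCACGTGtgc
Windows of 250 bases before to 50 after the start site were searched for 9 of the 10 genes, all but Dbt, on both strands and over 12 windows in all. The E-box CACGTG, a site bound by MYC, was in 1 of the 12, that of Mccc2, starting 9 bases before the start site, and in 7.15% of all 32851 promoter windows. The CACCC box CCACCC, bound by Kruppel-like factors, was in 4 of 12 (Bcat2, Bckdhb, Ivd and Mccc1), against 31.5% of all windows. The GC box GGGGCGGGG was in 2 of 12 (Bckdhb and Mccc1), against 11.4%. The cyclic AMP response element TGACGTCA, the C/EBP-ATF element TGATGCAA and the ERR half-site AAGGTCA, held by 1.79%, 0.895% and 4.72% of all windows, were in none of the 12. No pair of matches in the 12 windows overlapped. A match describes letters in a window, and binding was not measured here.

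The aminotransferases moved in opposite directions. Bcat1 (chr6:144993835-145076184, minus strand) was found at 0.113, 0.155 and 0.0976 FPKM in Ctrl replicates 1 to 3 and 3.17, 1.69 and 1.68 FPKM in cKO replicates 1 to 3. All Ctrl hearts were near the lower end of what these libraries can measure, with 20, 30 and 22 reads, while the cKO hearts held 500, 368 and 395. The mean rose 17.9-fold, from 0.122 ± 0.0296 to 2.18 ± 0.855 FPKM (n = 3 each). Since the pseudocount of 1 compresses changes of such low genes, the fitted log2 fold change reached 1.47 (SE 0.18, limma adjusted p 0.00212) and 4.09 (SE 0.48) with voom on the recovered reads. With no filter on low values, which Bcat1 passes only through cKO, it was called as well (limma adjusted p 0.00872). The cKO hearts spread widely, with replicate 1 well above the others, and none came near the Ctrl range.

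Bcat2 (chr7:45570153-45589711, plus strand), the mitochondrial enzyme, measured 27.8, 33.2 and 30.6 FPKM in the Ctrl hearts, against 24.8, 20.5 and 25.8 FPKM in the cKO hearts. The groups lay close together without overlapping, and the mean fell to 77.5% of Ctrl (log2 fold change -0.36, SE 0.11, limma adjusted p 0.0443). The call was lost in 11 of 15 alternative fits, which changed the filter, pseudocount, scaling or variance model or left out a heart, including each of the 6 fits that left out a heart (adjusted p 0.0512 to 0.134). Because Bcat2 was so much more abundant, it remained the main aminotransferase mRNA. Bcat1 made up 0.403%, 0.464% and 0.318% of the sum of both in the Ctrl hearts and 11.3%, 7.61% and 6.14% in the cKO hearts.

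The 3 genes of the dehydrogenase complex all fell. Bckdha (chr7:25629946-25658981, minus strand), the E1 alpha subunit that carries the regulatory phosphorylation, had levels of 43.3, 48.2 and 43.7 FPKM in Ctrl hearts but 26.8, 20.5 and 30.1 FPKM in cKO hearts. It fell by 0.80 on the log2 scale (SE 0.14, limma adjusted p 0.00668), and cKO replicate 2 was the lowest heart. Bckdhb (chr9:83925145-84124240, plus strand), the E1 beta subunit, was found at 32.0, 35.5 and 34.9 FPKM in Ctrl replicates 1 to 3 and 21.05, 23.6 and 23.6 FPKM in cKO replicates 1 to 3, with little spread inside either group (log2 fold change -0.56, SE 0.08, limma adjusted p 0.00336). Dbt (chr3:116513070-116549981, plus strand), which encodes the E2 core on which the complex is built, measured 21.1, 27.3 and 24.3 FPKM in the Ctrl hearts, against 13.8, 15.1 and 15.9 FPKM in the cKO hearts. The highest cKO heart stayed below the lowest Ctrl heart, and the mean fell by 0.66 on the log2 scale (SE 0.11, limma adjusted p 0.00519).

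Relative to Dbt of the same heart, the E1 genes did not separate the groups. Bckdha was 1.87 ± 0.155 times Dbt in Ctrl and 1.74 ± 0.329 times in cKO, and Bckdhb 1.41 ± 0.109 and 1.53 ± 0.0395 times, with overlapping hearts in both cases. The E3 subunit gene Dld, which the complex shares with pyruvate and oxoglutarate dehydrogenase, did not pass the test (140 ± 11.3 against 122 ± 4.49 FPKM, log2 fold change -0.20, 95% interval -0.40 to -0.00037 before adjustment, adjusted p 0.111), and it was named after its values were seen.

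The kinase and the phosphatase both fell, the kinase to 76.8% and the phosphatase to 30.1% of the Ctrl mean. Bckdk (chr7:127904082-127910221, plus strand) had levels of 24.1, 24.4 and 20.6 FPKM in Ctrl hearts but 19.1, 15.7 and 18.3 FPKM in cKO hearts, so that Ctrl replicate 3 and cKO replicate 1 nearly met. Its mean fell to 76.8% of Ctrl (log2 fold change -0.36, SE 0.10, limma adjusted p 0.0342). The call was lost in 8 of 15 alternative fits, among them those without Ctrl replicate 1 (adjusted p 0.103), Ctrl replicate 2 (0.107), cKO replicate 2 (0.0686) or cKO replicate 3 (0.0664).

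Ppm1k (chr6:57506502-57535468, minus strand), whose promoter is printed above, was found at 14.6, 16.3 and 19.4 FPKM in Ctrl replicates 1 to 3 and 3.97, 4.56 and 6.63 FPKM in cKO replicates 1 to 3. The highest cKO heart was below the lowest Ctrl heart by a wide margin, and replicate 3 was the highest of both groups. The mean fell from 16.8 ± 2.42 to 5.05 ± 1.39 FPKM and dropped by 1.57 on the log2 scale (SE 0.18, limma adjusted p 0.00172), rank 48 from the lowest of the 12944 genes tested. This rank is of differences on log2(FPKM + 1), where the pseudocount compresses changes of low genes. Ppm1k was called in each of the 15 alternative fits.

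The FPKM of the kinase was set over that of the phosphatase in each heart. The size of such a ratio depends on the gene lengths used, which were the same in every heart. The ratio of Bckdk to Ppm1k was 1.65, 1.49 and 1.06 in the Ctrl hearts and 4.80, 3.45 and 2.76 in the cKO hearts. The lowest cKO ratio was above the highest Ctrl ratio, and the mean was 1.40 ± 0.303 in Ctrl and 3.67 ± 1.04 in cKO, 2.62 times higher. This ratio does not depend on library scaling, and it is given as a description with no test. Set over Dbt, Ppm1k went from 0.696 ± 0.1003 to 0.336 ± 0.0711 with no overlap, whereas Bckdk was 0.960 ± 0.158 and 1.19 ± 0.175 with overlapping hearts. These are mRNA levels, and neither protein nor phosphorylation of the complex was measured in these files.

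**Figure D2:**
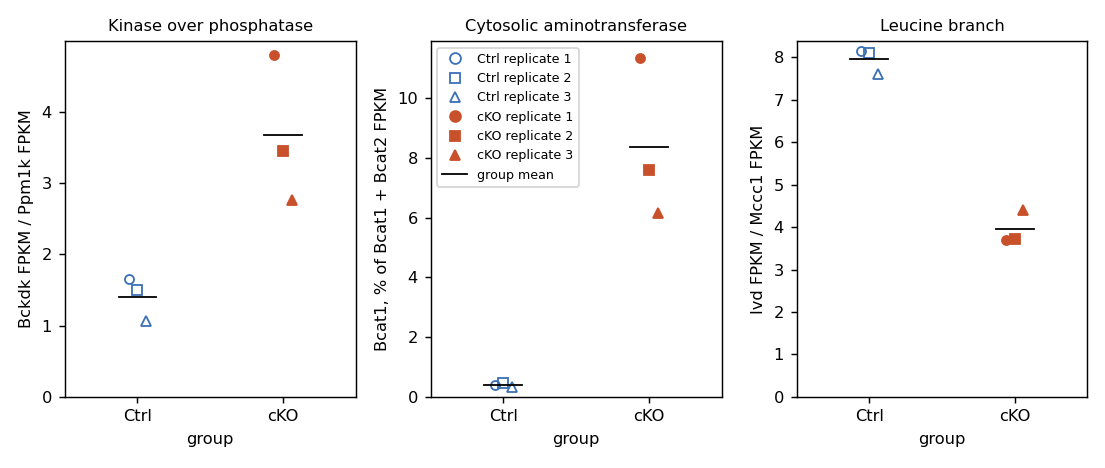
Ratios formed within each heart, from left to right the FPKM of Bckdk over that of Ppm1k, the percentage of Bcat1 in the summed FPKM of Bcat1 and Bcat2, and the FPKM of Ivd over that of Mccc1, with Ctrl open, cKO filled and a bar at the group mean. All axes start at 0; the groups do not overlap in any of the 3, and the mean of the Bckdk to Ppm1k ratio goes from 1.40 to 3.67.

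**Figure D3:**
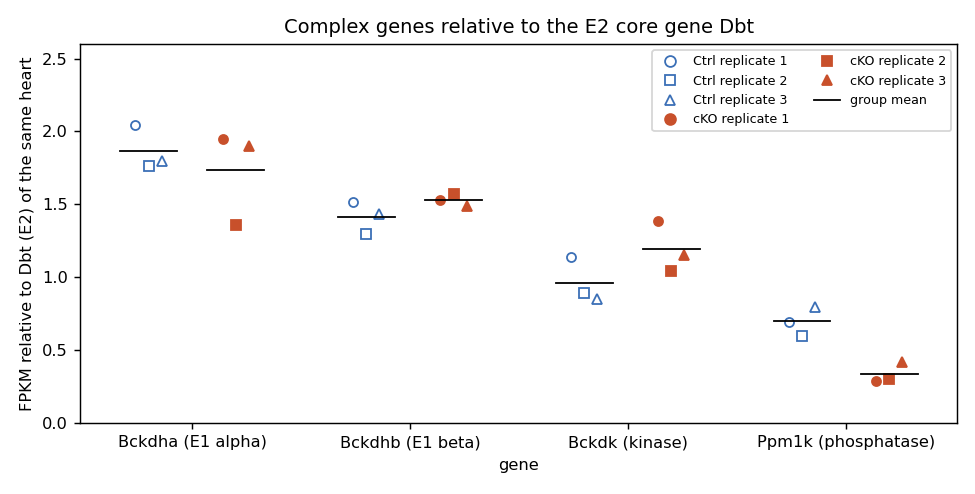
FPKM of Bckdha, Bckdhb, Bckdk and Ppm1k divided by the FPKM of Dbt in the same heart, with Ctrl open, cKO filled and a bar at the group mean. Only Ppm1k separates the groups (0.696 against 0.336 on average), and the other 3 genes overlap.

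The plots of ratios by heart show that the aminotransferase share and the kinase to phosphatase ratio were both highest in cKO replicate 1, which had the highest Bcat1 and the lowest Ppm1k level of the cKO hearts. Both were lowest among cKO hearts in replicate 3.

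The genes of the leucine branch fell, the first of them most. Ivd (chr2:118861954-118882909, plus strand), isovaleryl-CoA dehydrogenase, oxidises the product that the complex makes from leucine. It measured 77.0, 90.7 and 78.8 FPKM in the Ctrl hearts, against 23.9, 24.8 and 34.2 FPKM in the cKO hearts. Its mean fell from 82.2 ± 7.46 to 27.6 ± 5.70 FPKM (log2 fold change -1.55, SE 0.15, limma adjusted p 0.00111), rank 52 from the lowest on the scale used for Ppm1k. Ivd was the most abundant of the 10 mRNAs in Ctrl, and even the highest cKO heart was below the lowest Ctrl heart by more than the range of either group.

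Mccc1 and Mccc2 encode the biotin-carrying alpha and the beta subunit of methylcrotonyl-CoA carboxylase, the step after Ivd. Mccc1 (chr3:35959312-36000678, minus strand) had levels of 9.44, 11.2 and 10.3 FPKM in Ctrl hearts but 6.47, 6.65 and 7.75 FPKM in cKO hearts (log2 fold change -0.51, SE 0.09, limma adjusted p 0.00818). Mccc2 (chr13:99948530-100015639, minus strand) was found at 18.1, 22.0 and 19.1 FPKM in Ctrl replicates 1 to 3 and 9.42, 9.94 and 10.7 FPKM in cKO replicates 1 to 3 (log2 fold change -0.91, SE 0.09, limma adjusted p 0.00145). The groups were apart in both, and so was the ratio of FPKM formed within each heart. Mccc2 was 1.91 ± 0.0575 times Mccc1 in Ctrl and 1.44 ± 0.0553 times in cKO. Reads in Ctrl ran the other way, 1971, 2551 and 2742 for Mccc1 and 968, 1282 and 1298 for Mccc2. Ivd was 7.96 ± 0.298 times Mccc1 in Ctrl and 3.94 ± 0.406 times in cKO, again with no overlap.

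Ordered by mean FPKM, the Ctrl hearts had Ivd first, then Bckdha, Bckdhb, Bcat2, Dbt, Bckdk, Mccc2, Ppm1k, Mccc1 and Bcat1. Neighbours in this order overlapped between Bckdhb and Bcat2 and along the run of Dbt, Bckdk, Mccc2 and Ppm1k, and the other neighbours were apart. In the cKO hearts the order was Ivd, Bckdha, Bcat2, Bckdhb, Bckdk, Dbt, Mccc2, Mccc1, Ppm1k and Bcat1. There the first 4 genes formed an unbroken run of overlapping ranges, Bckdk overlapped Dbt, and Mccc1 overlapped Ppm1k. Ivd thus stood clear of Bckdha in Ctrl but not in cKO, and Ppm1k stood clear above Mccc1 in Ctrl but not in cKO. Within groups, Ctrl replicate 2 had the highest level of the Ctrl hearts in 9 of the 10 genes, and cKO replicate 3 had the highest of the cKO hearts in 7. These counts were not made over all genes tested, so they are not read as a trait of these genes. The first count depended on scaling: with values scaled to all reads in genes it was 7, Bckdhb then being highest in Ctrl replicate 3 and Bckdk in Ctrl replicate 1, while the second stayed at 7.

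Whether reads were counted by strand is not given in the sources used here, and 4 of the genes share exon bases with a gene on the opposite strand: Bckdha 1171 with B3gnt8 (0.442 to 0.888 FPKM), Bcat2 622 with 0610005C13Rik, Bcat1 337 with Gm26666 (0 FPKM in all hearts) and Mccc1 321 with B230207O21Rik, 198 with Mccc1os and 94 with Gm15952. Their levels are uncertain to that extent, although the partners were all listed below 1 FPKM.

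The rest of the pathway was read from a list of 30 other genes, all of which passed the filter. Of these, 16 fell, 2 rose and 12 did not pass the test, with a median log2 fold change of -0.41. Over all genes tested, 17.0% fell, 16.3% rose and the median was -0.02. In the valine branch 3 of 4 fell (Aldh6a1 -0.91, Hibadh -0.63 and Acad8 -0.50), and in the isoleucine branch both did (Acat1 -0.88 and Acadsb -0.75). Auh, which hydrates the product of methylcrotonyl-CoA carboxylase, fell from 11.3 ± 0.407 to 6.26 ± 1.04 FPKM (log2 fold change -0.77, limma adjusted p 0.00339). Echs1, the enoyl-CoA hydratase that valine and isoleucine share, also fell (-0.56). All 6 genes of the propionyl-CoA steps, which carry valine and isoleucine carbon to succinyl-CoA, fell. Among them were Mmut, methylmalonyl-CoA mutase (-0.90), Mcee (-0.73), Mmab (-0.71), and the carboxylase subunits Pcca (-0.58) and Pccb (-0.56). None of the 4 genes that attach lipoate or biotin to these enzymes passed the test. One of them, the lipoyltransferase gene Lipt1, named after its values were seen, was at 2.63 ± 0.346 FPKM in Ctrl and 3.62 ± 0.714 in cKO (limma adjusted p 0.0930) and was called higher in 3 of 15 alternative fits: under scaling to all reads in genes (0.0390), under the replicate block (0.0461) and without cKO replicate 3 (0.0324).

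**Figure D4:**
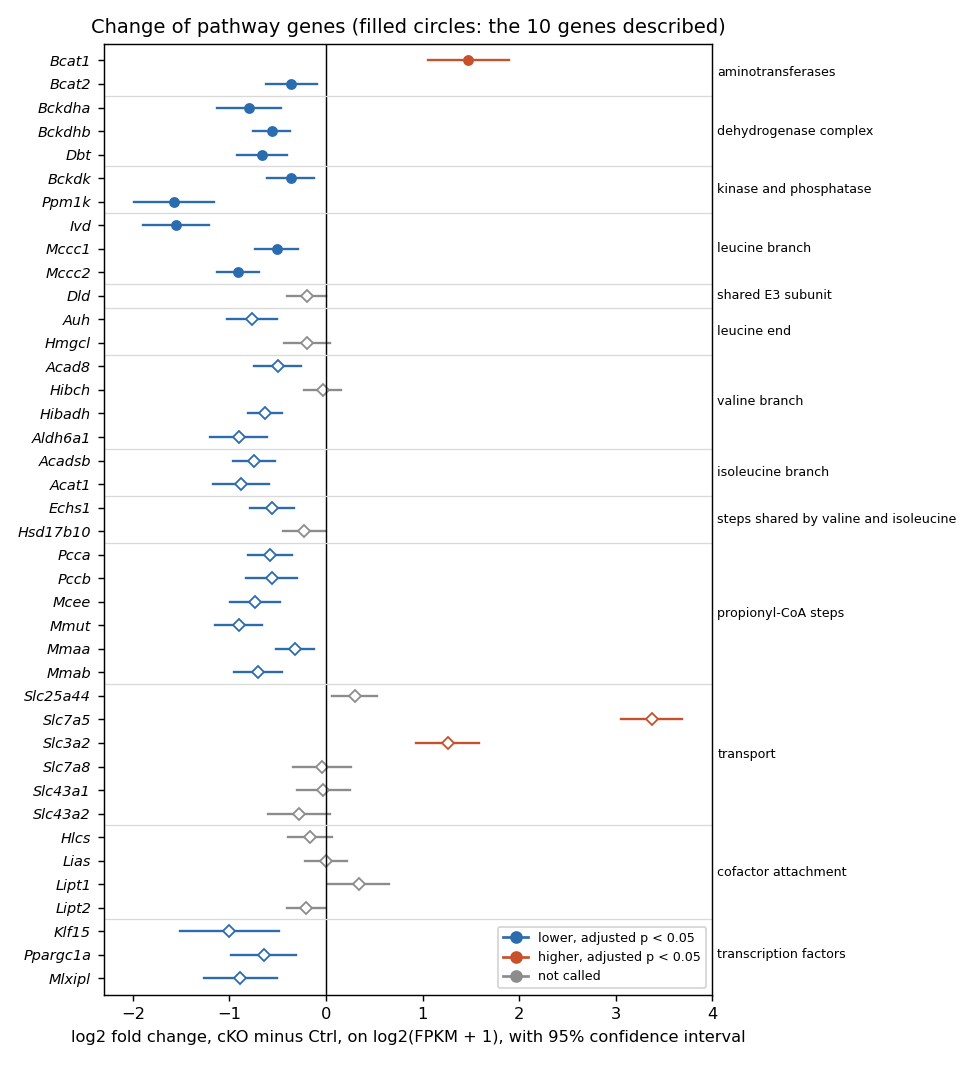
Log2 fold change (cKO minus Ctrl, on log2(FPKM + 1)) with its 95% confidence interval, not adjusted for the number of genes, for the 10 genes described (filled circles) and 30 other genes of the pathway (open diamonds), grouped by step, with colour giving the call at an adjusted p of 0.05. Most enzymes lie left of 0, while Bcat1, Slc7a5 and Slc3a2 lie to the right.

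As the plot of changes by step shows, the genes that rose were, besides Bcat1, both chains of the LAT1 transporter of the plasma membrane, which imports large neutral amino acids including leucine. Its light chain Slc7a5 measured 3.18, 2.85 and 1.95 FPKM in the Ctrl hearts, against 35.8, 38.0 and 35.8 FPKM in the cKO hearts, 13.7 times higher on average (log2 fold change 3.37, SE 0.13, limma adjusted p 8.73e-05). The mean of its heavy chain Slc3a2 was 13.2 ± 1.81 FPKM in Ctrl and rose to 33.2 ± 4.94 in cKO (log2 fold change 1.26, SE 0.14, limma adjusted p 0.00166). Slc25a44, the mitochondrial carrier of branched-chain amino acids, was at 6.77 ± 0.226 FPKM in Ctrl and 8.60 ± 1.14 in cKO and did not pass (adjusted p 0.0552), though it did in 5 of 15 alternative fits, 3 of them changes of scaling. It was named after its values were seen.

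The 3 transcription factors on the list, which are known to act on genes of amino acid and energy metabolism, fell. Klf15, a Kruppel-like factor, had levels of 26.4, 29.0 and 44.5 FPKM in Ctrl hearts but 17.5, 12.5 and 17.7 FPKM in cKO hearts (log2 fold change -0.999, SE 0.22, limma adjusted p 0.0137). The study singled out Klf15 from these hearts, so its place on the list is not independent evidence of its direction. Mlxipl, which encodes ChREBP, changed by -0.89 on the log2 scale (SE 0.16, limma adjusted p 0.00726), and Ppargc1a, the coactivator PGC-1 alpha, by -0.64 (SE 0.14, limma adjusted p 0.0143). The Ppargc1a call was lost without Ctrl replicate 2 (adjusted p 0.0503) or Ctrl replicate 3 (0.0512).

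Relatives of the 10 genes in neighbouring pathways were read from the same fit, in which 17.0% of all genes tested fell. Of 6 genes of the pyruvate and oxoglutarate dehydrogenase complexes, 1 fell (Ogdh, -0.41), and their median log2 fold change was -0.26, against -0.66 for the 3 genes of the branched-chain complex. The Ogdh call was lost in 6 of 15 alternative fits. Of 7 genes for pyruvate dehydrogenase kinases and phosphatases, 3 fell. The phosphatase Pdp2 went from 6.40 ± 0.922 to 2.27 ± 0.348 FPKM (-1.18, limma adjusted p 0.00145). The others were the phosphatase regulatory subunit Pdpr (-0.79) and the kinase Pdk2 (-0.61). Of 5 other acyl-CoA dehydrogenases, the enzyme family of Ivd, 3 fell, Gcdh (-1.22), Acads (-0.91) and Acadm (-0.72). Of 3 other biotin carboxylases 1 fell, Acacb (-0.79). These differences between lists were not tested.

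Over the 6 hearts, the 5 protein-coding genes that followed Ppm1k most closely on log2(FPKM + 1) were Sh2b3 (Pearson's r 0.999), Fhod3 (0.998), Ltbp1 (0.997), Rgs5 (0.997) and Urod (0.996). The hearts fall into the 2 groups, and 785 of 11420 protein-coding genes had an r of at least 0.95, so the values are given as a description. Sh2b3 is a signalling adaptor, Fhod3 a formin of the sarcomere, Ltbp1 binds latent TGF-beta, Rgs5 dampens G protein signals and stands on the mural marker list, and Urod is an enzyme of haem synthesis. Sh2b3 was found at 8.19, 8.60 and 9.12 FPKM in Ctrl replicates 1 to 3 and 5.65, 5.99 and 6.52 FPKM in cKO replicates 1 to 3, in the same order of replicates as Ppm1k in both groups.

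Cell type markers moved beside these genes. Of 10 cardiomyocyte markers, 8 fell, with a median log2 fold change of -0.63, and their summed level was 25057 to 30436 FPKM in the Ctrl hearts and 13947 to 21358 FPKM in cKO, 65.0% of Ctrl on average. In bulk tissue, fewer cells of a type and less RNA per cell cannot be told apart. Bckdk, Bcat2, Bckdhb and Mccc1 were at a higher percentage of Ctrl than that sum, and Ppm1k, Ivd, Mccc2, Dbt and Bckdha at a lower one. Because the marker sums of single cKO hearts spread widely around their mean, this sort is only a description, and genes near 65.0% are not told apart by it. Endothelial markers fell in 4 of 6 (summed 116 to 138 FPKM in Ctrl, 77.2 to 90.9 in cKO). The sum of 6 mural markers was 148 to 167 against 97.8 to 125 FPKM, with 1 lower and 2 higher of 5 tested. In Ctrl that sum was mostly Rgs5, the 1 that fell (mean 123 FPKM in Ctrl, 58.3 in cKO), while Acta2 (18.7 and 36.0) and Cspg4 (1.56 and 3.30) rose. Of 8 fibroblast markers 3 rose and 1 fell, and the sums overlapped (162 to 189 and 163 to 195 FPKM). Dcn, the 1 that fell (104 and 69.1), made most of the Ctrl sum, while Col1a1, Col3a1 and Postn rose. The mural and fibroblast sums therefore do not describe their lists as a whole. The sums of 7 macrophage markers also overlapped (250 to 333 and 192 to 287 FPKM), and 1 of 6 tested fell. Atrial markers differed widely between hearts in both groups (128 to 2054 and 575 to 1675 FPKM summed), with none of 5 called. Nppa, which the study uses as a hypertrophy marker, made most of the sum in each cKO heart (469, 1127 and 938 FPKM), so that sum is not read as atrial tissue. The 6 adipocyte markers were low (4.59 to 22.0 and 2.04 to 14.9 FPKM summed), with Lep near 0 and none of 3 tested called. Of the 5 skeletal muscle markers Myh1, Myh2 and Myh4 were near 0 in all hearts, and Mybpc2, the only one tested, fell. The part of these marker changes in the results was not tested.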

How the data were processed

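RNA from 3 Ctrl and 3 cKO hearts was sequenced as poly-A libraries. Per the labels, the authors aligned reads with HISAT2 2.0.5, counted them per gene with featureCounts 1.5.0-p3 and used DESeq2 1.16.1. The deposited FPKM were computed by the authors from read count and gene length. The labels name mm9, but of 54409 gene IDs shared with GENCODE release 21, 53499 have the same start and end as in GRCm38, so coordinates are given as GRCm38.

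FPKM times length was a whole multiple of one step for 100% of values (tolerance 0.01 read), giving 15989322 to 24875499 reads a heart. The library size behind the FPKM was 0.913 to 0.980 times these totals in Ctrl and 1.06 times in each cKO heart. Hearts of 1 group always differed by more than counting noise. Pairs with cKO replicate 2 differed most, with a mean chi-square per gene between read counts of 43.11 and 40.84. It was 16.55 between cKO replicates 1 and 3 and 13.18 to 16.71 between Ctrl hearts. The study describes the groups as littermates without saying which hearts share a litter, so p-values measure the spread between these hearts.

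Groups were compared with limma 3.58.1 in R 4.3.3 (lmFit, eBayes with trend) on log2(FPKM + 1), keeping genes that averaged 0.5 FPKM or more, with Benjamini-Hochberg adjustment and a threshold of 0.05. The script was tested on simulated data. The 15 alternatives were a pseudocount of 0.1, no filter, a stricter filter of 1 FPKM, scaling by median of ratios or without mtDNA-encoded genes, scaling to all reads in genes (chosen after seeing the data), eBayes without trend, voom on the recovered reads, the replicate number as a block, and leaving out each of the 6 hearts. Promoter sequences are from RefSeq (GRCm38.p6). Matched by symbol, 9 of the 10 genes had a window.

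The 10 genes and the gene lists were chosen with earlier results of these data known. Named were the 10 genes, Mrps5, those listed pathway genes called at least 0.5 apart on the log2 scale or against most others, called relatives of the 10, and the 5 protein-coding genes most correlated with Ppm1k. Mmut and Pc were matched through a RefSeq synonym.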

Additional observations from a re-analysis of the deposited data

How the results depend on the processing

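Over the 10 genes and 15 alternatives, 131 of 150 calls were the same, 19 were lost, and no direction reversed. The lost calls were those of Bcat2 (11) and Bckdk (8). The number of the 10 genes called lower was 7 to 9 under the alternatives, 7 to 8 when 1 replicate was left out, and Bcat1 was called higher in all of them. Over 27 other named genes, 392 of 405 calls were the same, 8 were lost and 5 were gained, all of them by Slc25a44. Lipt1, which was called higher in 3 of the 15 alternatives, is not among these 27. The number of pathway genes called higher moved from 2 to 4 with scaling to all reads in genes, an alternative chosen after seeing the data, which added Slc25a44 and Lipt1. Scaling to all reads in genes called 1381 genes lower and 3273 higher, scaling without mtDNA-encoded genes 1621 and 2649, and the deposited values 2205 and 2110. Leaving out a heart gave 1423 to 2011 genes lower and 1396 to 1977 higher, with fewer samples. The Bckdk to Ppm1k ratio was 1.28 to 1.57 in Ctrl and 3.11 to 4.13 in cKO when 1 replicate was left out, and 1.38 and 3.58 as geometric means. Depth limits Bcat1 in Ctrl, where 20 to 30 reads a heart were counted.

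With the replicate number as a block, 7 of the 10 genes were called lower (Bcat2 adjusted p 0.0841, Bckdk 0.0593) and 1982 genes lower and 1874 higher in all. Same-numbered hearts did not deviate together (correlations -0.055, 0.17 and -0.015; 2 of 6 hearts correlated best with their own number), and the sources used here, though they call the groups littermates, do not tie a number to a litter, so the numbers were not taken to pair the hearts.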
